A study of Mus musculus with 28 samples.

Results

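The transcriptomes of Irgm1-deficient and wild-type macrophages were compared with both genotypes under fenofibrate, so that the drug was shared and genotype was the labelled difference. All 8 libraries whose titles name fenofibrate were used, 4 Irgm1KO and 4 WT, out of 28 in the series, and 15429 of the 56941 genes in the table passed the filter on low counts and were tested. The cells were primary bone marrow-derived macrophages of mice aged 2 to 4 months, of both sexes, with the mutant line backcrossed to C57BL/6. They were grown for 6 days with medium conditioned by L929 cells, a source of macrophage growth factor, and then kept for 24 h without it. Fenofibrate was given at 50 µM. The labels do not give how long the drug was present, what control cells received, which part of Irgm1 was deleted, or whether each library of a group is a separate animal. The p-values therefore measure the spread between libraries within the 4 groups of the same experiment, which were fitted together, and part of that spread may be technical. The other groups used for context were WT and Irgm1KO controls of the same experiment (n = 4 each) and the WT and Irgm1-KO groups of an earlier experiment without the drug (n = 4 each).

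Irgm1 is an interferon-induced immunity-related GTPase that acts at intracellular membranes in autophagy, lysosomal and mitochondrial homeostasis. Type I interferons signal through the receptor IFNAR to the factor complex ISGF3, which binds interferon-stimulated response elements and turns on a large set of antiviral genes. Fenofibrate is a lipid-lowering drug whose active acid is a ligand of PPAR alpha, a nuclear receptor that induces genes of fatty acid uptake and of peroxisomal and mitochondrial fatty acid oxidation.

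Library totals ran from 82.4 to 116 M counts (M, mega) across the 8 libraries. One gene without a symbol took 1.42% to 8.13% of the counts, and leaving it out gave 2788 higher and 2351 lower genes in place of the 2792 and 2348 given below. The first principal component of the 8 libraries held 52.8% of the variance, with WT at -20.3 to -11.7 and Irgm1KO at 10.8 to 25.7. By Xist and Y-linked counts, WT replicates 1 and 3 and Irgm1KO replicates 1, 2 and 4 were female, and the others male, so the sexes were not balanced between the genotypes. Macrophage markers Csf1r (WT mean 2008 CPM, Irgm1KO 1837) and Adgre1 (1008 and 889) were abundant in both groups, where CPM is the count per M counts of the TMM-scaled library. Cd3e, Cd3d, Cd3g and Trbc2 of T cells and Eomes, Gzma, Prf1 and Nkg7 of NK cells were at 0 in all 8 libraries. The T cell list was not wholly at 0. Its 8 members summed to 1.34 to 1.83 CPM in WT and 1.17 to 1.78 CPM in Irgm1KO, and the 2 that were tested were not called. Klrk1, an activating receptor and the 1 NK marker tested, was higher in Irgm1KO (mean 6.10 CPM in WT and 18.7 CPM in Irgm1KO, log2 1.62, adjusted p = 0.00126).

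Irgm1 was read as a check of the direction of the labels. It measured 1673, 1470, 1625 and 1582 CPM in the WT libraries and 1017, 1144, 1093 and 1048 CPM in the Irgm1KO libraries. Every mutant library lay below every WT library, and the means were 1588 and 1076 CPM against 1603 and 1018 CPM in the WT and Irgm1KO controls. The log2 fold change, Irgm1KO minus WT here and below, was -0.56 (SE 0.0541, adjusted p = 3.5e-06). The Irgm1KO level was still 0.678 of the WT level, so most of the transcript count remained. The fall goes in the direction of the labels but does not by itself show loss of the gene.

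**Figure D1:**
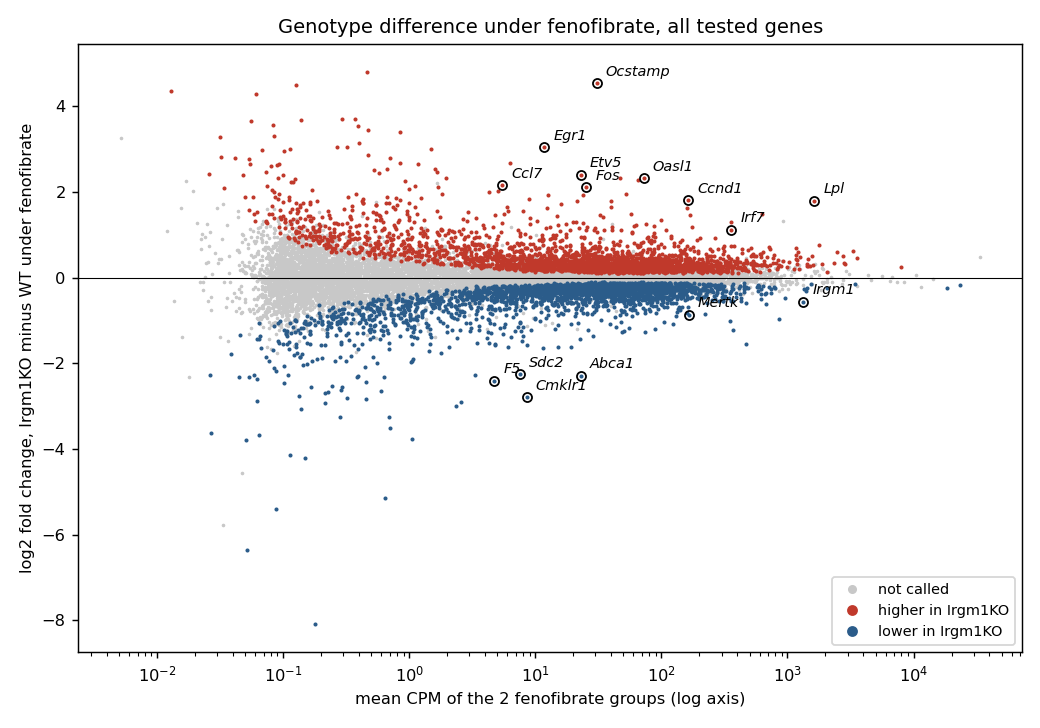
Log2 fold change of Irgm1KO against WT under fenofibrate (vertical axis) against the mean CPM of both groups (horizontal log axis) for 15429 tested genes, each a point, red if called higher, blue if called lower and grey otherwise. Ocstamp (4.55) and Egr1 (3.04) stand at the top among circled genes, and Cmklr1 (-2.79) at the bottom.

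With both genotypes on the drug, 2792 genes were higher in Irgm1KO (18.1% of those tested) and 2348 were lower (15.2%), calling a gene when its Benjamini-Hochberg value from the edgeR fit was under 0.05. Differences of more than 2-fold were called for 324 higher genes (2.1%) and 269 lower genes (1.74%), and the median log2 fold change over all tested genes was 0.01. The shares of 18.1% higher and 15.2% lower are the background for each list count below. Among the 3 female Irgm1KO and 2 female WT libraries alone, 1658 genes were higher and 1297 lower, with 252 and 227 past 2-fold. With the 8 fenofibrate libraries fitted on their own, 1782 were higher and 1652 lower, with 248 and 224 past 2-fold.

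The genes with the largest rises were regulators of growth and cell fusion, protease inhibitors, a chemokine and an antiviral gene. Ocstamp, a transmembrane protein needed for fusion of osteoclasts and of macrophage giant cells, measured 3.17, 1.27, 2.08 and 3.52 CPM in WT and 51.4, 86.9, 57.9 and 40.1 CPM in Irgm1KO. The groups stood far apart, a 23.4-fold rise (log2 4.55, SE 0.344, adjusted p = 9.93e-07). Its relative Dcstamp also rose but was near the detection limit (WT mean 0.14 CPM, Irgm1KO 0.513), while the osteoclast enzymes Acp5 (log2 -0.07, adjusted p = 0.789) and Ctsk (-0.26, adjusted p = 0.178) were not called. Calcr, another osteoclast marker, was at 0 throughout.

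Several immediate-early and growth-response factors rose together. Egr1, a zinc finger transcription factor, was 3.31, 2.41, 2.88 and 1.63 CPM in WT and 15.2, 23.2, 25.9 and 19.5 CPM in Irgm1KO. No Irgm1KO library came near the WT range, and the rise was 3.04 on the log2 scale (SE 0.202, adjusted p = 1.28e-07). Fos, a subunit of the AP-1 factor, went from a mean of 9.50 to 41.1 CPM (log2 2.11), and Myc from 2.00 to 8.13 CPM (log2 2.01). Etv5, an ETS factor downstream of growth factor signalling, was 7.57, 7.73, 5.53 and 8.26 CPM in WT against 40.9, 33.5, 39.6 and 40.6 CPM in Irgm1KO. The groups were far apart, a 5.30-fold rise (log2 2.41, SE 0.118, adjusted p = 4.42e-09). Ccnd2, a G1 cyclin, rose by 2.32 on the log2 scale. Serpinb1c (2.67) and Serpinb6b (2.28), intracellular serine protease inhibitors, rose as well, but both belong to clusters of closely related genes, so counting may have split their reads.

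The largest falls included lipid, receptor and adhesion genes. Abca1, the transporter that exports cholesterol to apolipoprotein A-I, measured 39.8, 43.2, 49.8 and 20.6 CPM in WT and 8.97, 6.75, 7.63 and 8.09 CPM in Irgm1KO. All mutant libraries were below the lowest WT library, and the level was 4.88-fold lower (log2 -2.29, SE 0.207, adjusted p = 3.89e-06). Cmklr1, the receptor for the chemoattractant chemerin, varied widely in WT (6.85, 30.3, 17.5 and 4.86 CPM) and was 3.06, 1.30, 1.03 and 3.27 CPM in Irgm1KO. The groups did not overlap, though WT replicate 4 came close to the mutant range (log2 -2.79, SE 0.687, adjusted p = 0.00713). Coagulation factor F5 (-2.40), the membrane adaptor Ank2 (-2.26) and the heparan sulfate proteoglycan Sdc2 (-2.26) fell by similar amounts. Slc7a11, the cystine transporter, fell by 1.64 on the log2 scale. Fam13a (-1.62), Lipo3 (-1.61), Etl4 (-1.56) and the signalling adaptor Gab1 (-1.54) completed the 10 largest falls, and Lipo3 has close relatives that may share its reads.

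**Figure D2:**
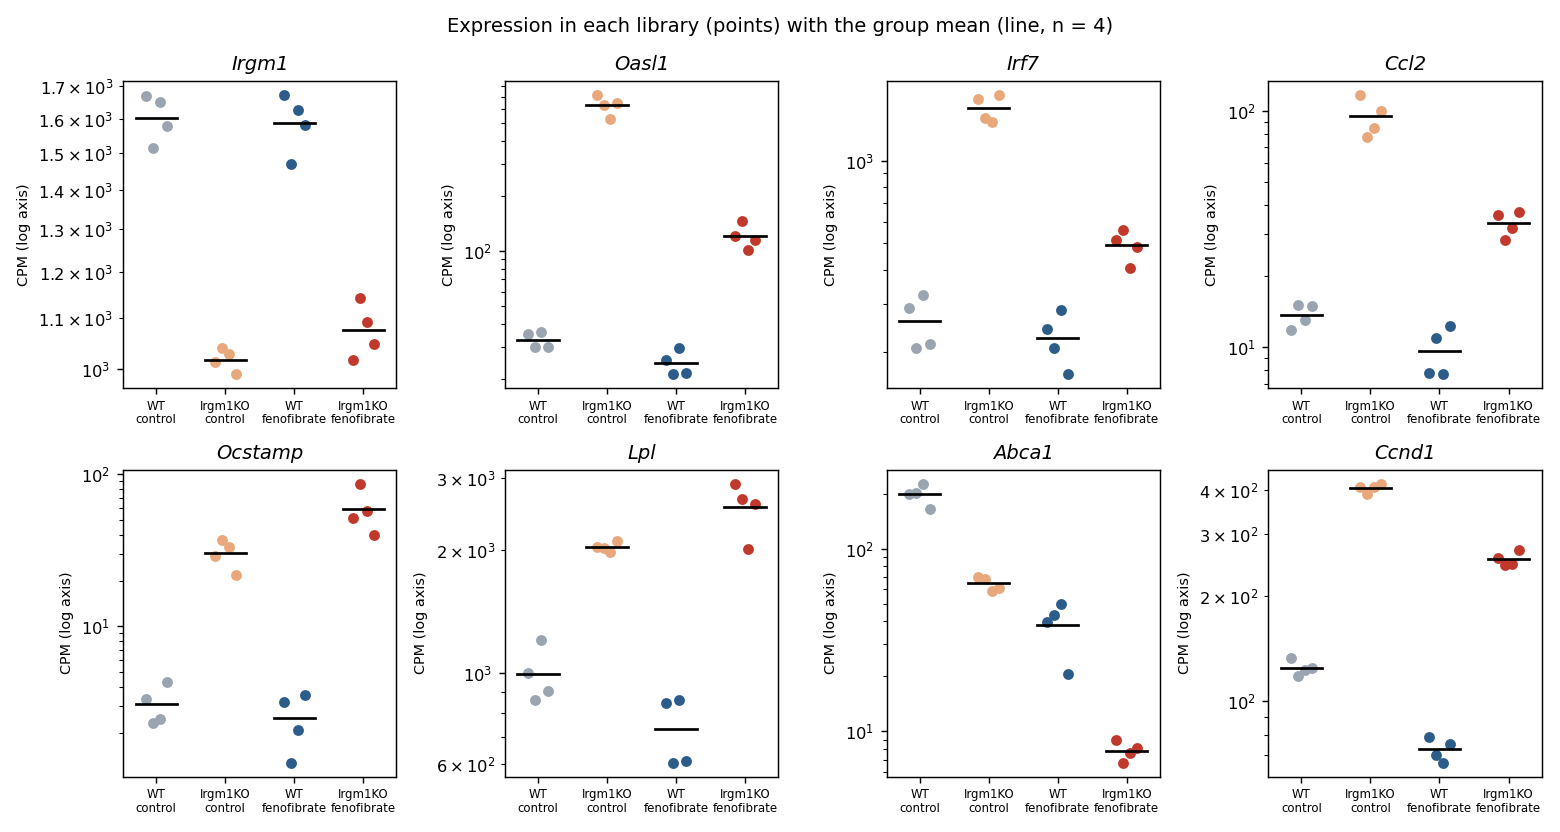
CPM (vertical log axis, scaled for each panel) of 8 genes in each library (points) with the mean of each group of 4 (line) for WT and Irgm1KO in control and under fenofibrate. Under the drug, Oasl1, Irf7, Ccl2, Ocstamp, Lpl and Ccnd1 are higher in every Irgm1KO library than in any WT library, and Irgm1 and Abca1 are lower.

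Type I interferon-stimulated genes were higher in Irgm1KO under the drug. Of 66 tested members of the list, 50 rose and 0 fell, against 18.1% of all genes higher, and the median log2 fold change was 0.44 against 0.01 over all genes. In 34 members every Irgm1KO library was above every WT library, which held for 15.2% of all tested genes. Among the female libraries 37 members rose.

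Oasl1, an oligoadenylate synthetase-like protein that restrains IRF7 translation, measured 25.2, 21.2, 29.4 and 21.4 CPM in WT and 121, 146, 101 and 115 CPM in Irgm1KO. The lowest mutant library was far above the highest WT library, a 4.98-fold rise (SE of the log2 value 0.132, adjusted p = 2.26e-08). Irf7, the master factor of the type I interferon amplification loop, was 242, 206, 286 and 167 CPM in WT and 513, 558, 405 and 486 CPM in Irgm1KO. The groups did not overlap (log2 1.12, SE 0.169, adjusted p = 0.000185). The protein modifier gene Isg15 averaged 30.4 ± 6.83 CPM in WT and 84.3 ± 13.5 CPM in Irgm1KO (here and below mean ± SD, n = 4), and Usp18, which encodes the protease that removes it and dampens receptor signalling, rose from 52.9 ± 5.85 to 122 ± 15.4 CPM. Ifnb1, the gene of interferon beta itself, was close to the detection limit with 9 counts in the WT group and 49 in the Irgm1KO group, and rose (log2 2.61, SE 0.576, adjusted p = 0.00269).

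Promoters of the 3 risen members with the smallest p among those holding an interferon-stimulated response element are shown because this is the element that ISGF3 binds. It was searched as 2 copies of GAAA with any 2 bases between them. Promoters of a single chromosome were left out when the 3 were chosen. Each run is the 250 bases before the RefSeq gene start in build GRCm38.p6, 5′ to 3′ on the gene's strand, with matches on either strand in capitals. All 3 genes lie on the minus strand, Apol9a at chr15:77411081-77411330, Oas1g at chr5:120887614-120887863 and Oas1a at chr5:120907526-120907775.
Apol9a: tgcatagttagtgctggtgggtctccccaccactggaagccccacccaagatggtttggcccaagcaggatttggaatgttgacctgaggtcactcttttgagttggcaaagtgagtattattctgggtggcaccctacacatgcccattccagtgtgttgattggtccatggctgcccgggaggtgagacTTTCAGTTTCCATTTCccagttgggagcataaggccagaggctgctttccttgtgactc
Oas1g: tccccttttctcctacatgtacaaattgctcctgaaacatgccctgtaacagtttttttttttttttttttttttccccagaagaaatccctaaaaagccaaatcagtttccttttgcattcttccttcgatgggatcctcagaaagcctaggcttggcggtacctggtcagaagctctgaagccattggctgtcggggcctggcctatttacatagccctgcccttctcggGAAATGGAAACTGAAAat
Oas1a: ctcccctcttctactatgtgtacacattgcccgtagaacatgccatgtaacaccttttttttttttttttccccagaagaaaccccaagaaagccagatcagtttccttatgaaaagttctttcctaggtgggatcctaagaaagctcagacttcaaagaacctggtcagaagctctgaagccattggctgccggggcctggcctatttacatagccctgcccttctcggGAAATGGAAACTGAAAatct
Each holds 2 matches that overlap. The Oas1g and Oas1a runs carry the same capitals, close to the gene start, and Apol9a carries its matches on the opposite strand. Apol9a, an apolipoprotein L family member, was 0.102, 0.0549, 0.126 and 0.0485 CPM in WT and 0.799, 0.939, 0.493 and 0.636 CPM in Irgm1KO (log2 3.15, adjusted p = 3.91e-06). The 2'-5'-oligoadenylate synthetase genes Oas1g (log2 1.43) and Oas1a (log2 0.86, from 56.3 to 102 CPM) rose without overlap of the groups. Reads of Apol9a and Apol9b, and of the Oas1 copies, may be hard to tell apart. The element was found in 23 of 52 list members with a promoter entry (44.2%) against 3.5% of the 10250 tested genes with an entry and 2.98% of all 32851 promoters of the table. It was present in 15 of 37 risen members (40.5%) and in 8 of 15 that were not called (53.3%).

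Genes upstream and alongside of the interferon response moved less evenly. In the list of interferon ligands, receptors and signalling, 10 of 22 rose and 2 fell (median 0.14). The count of risen members was 5 in the female libraries and 6 with only the 8 fenofibrate libraries fitted. Irf5, an interferon regulatory factor, rose from 192 ± 12.3 to 269 ± 25.6 CPM, and Tmem173, which encodes the DNA-sensing adaptor STING, from 137 ± 9.38 to 184 ± 8.84 CPM. Tbk1, the kinase that STING engages, fell from 109 ± 4.78 to 92.2 ± 3.17 CPM. Among 18 immunity-related GTPases and guanylate-binding proteins, 3 rose (16.7%, near the share over all genes) and 7 fell (38.9%), with a median of -0.06. Gbp8 fell (220 ± 12.4 to 169 ± 6.97 CPM) and Gbp4 rose (484 ± 60.2 to 610 ± 24.1 CPM), but Gbp4 was not called in the female libraries alone (adjusted p = 0.0546). Of 25 genes more typical of interferon gamma, 5 rose (20%) and 2 fell (8%), with a median of 0.18, and the risen share was near the 18.1% over all tested genes. Upp1, a uridine phosphorylase, rose by 1.42 and Batf2, a leucine zipper factor, by 0.94 on the log2 scale, while Cd274, which encodes the checkpoint ligand PD-L1, fell by 0.36.

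Antigen presentation genes included some that rose and none that was called lower. Of 21 MHC class I presentation genes, 9 rose and 0 fell (median 0.14), with 4 rising in the female libraries alone. The immunoproteasome subunit Psmb8 went from 420 ± 20.3 to 538 ± 61.5 CPM and the proteasome activator Psme2 rose by 0.34 on the log2 scale. Among 11 MHC class II genes 4 rose and 0 fell (median 0.20). H2-DMa, a peptide-loading chaperone, rose by 0.37 but was not called in the female libraries alone (adjusted p = 0.0694). Cd74, the invariant chain, rose by 0.33 (adjusted p = 0.0409), but without WT replicate 4 the adjusted p was 0.103 and without Irgm1KO replicate 1, 2 or 4 it was 0.0534, 0.126 and 0.0624.

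Inflammatory mediators split. Of 33 cytokine and chemokine genes, 11 rose and 4 fell, with a median of 0.21. Ccl2, a monocyte chemoattractant, was 7.77, 10.9, 7.69 and 12.3 CPM in WT and 36.1, 28.3, 31.8 and 37.4 CPM in Irgm1KO. The groups did not overlap (log2 1.79, SE 0.163, adjusted p = 3.5e-06), and its neighbour in function Ccl7 rose by 2.16. Ptgs2, the inducible cyclooxygenase, rose from 21.7 ± 3.47 to 84.0 ± 15.7 CPM (log2 1.96, adjusted p = 3.6e-07), and Ccl6 from 36.4 ± 11.3 to 83.9 ± 14.9 CPM. Tnf rose less, from 19.4 ± 1.54 to 25.6 ± 3.69 CPM (log2 0.40, adjusted p = 0.00202), and was not called in the female libraries alone (adjusted p = 0.0522).

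Ccl5, Nos2 and Cxcl10, also well-known inflammatory genes, did not pass the test. Ccl5 was 70.0, 92.7, 104 and 59.2 CPM in WT and 82.7, 113, 87.7 and 94.1 CPM in Irgm1KO, with overlapping groups (adjusted p = 0.46). Nos2, the inducible nitric oxide synthase, had a log2 value of 0.56 (adjusted p = 0.0556), and Cxcl10 one of -0.41 (adjusted p = 0.066), again with overlap. Il6 was called lower (adjusted p = 0.0198) on 19 counts in the WT group and 3 in the Irgm1KO group, so no fold is given, and without WT replicate 2 or Irgm1KO replicate 3 the adjusted p was 0.0683 and 0.0551. In the list of NF-kB feedback and target genes, 1 of 24 rose and 7 fell (median -0.18). Tnip3, an A20-binding inhibitor, rose by 0.75. Tnfaip2 (-0.47), the caspase-8 regulator Cflar (-0.29) and the mitochondrial superoxide dismutase Sod2 (-0.46) fell.

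**Figure D3:**
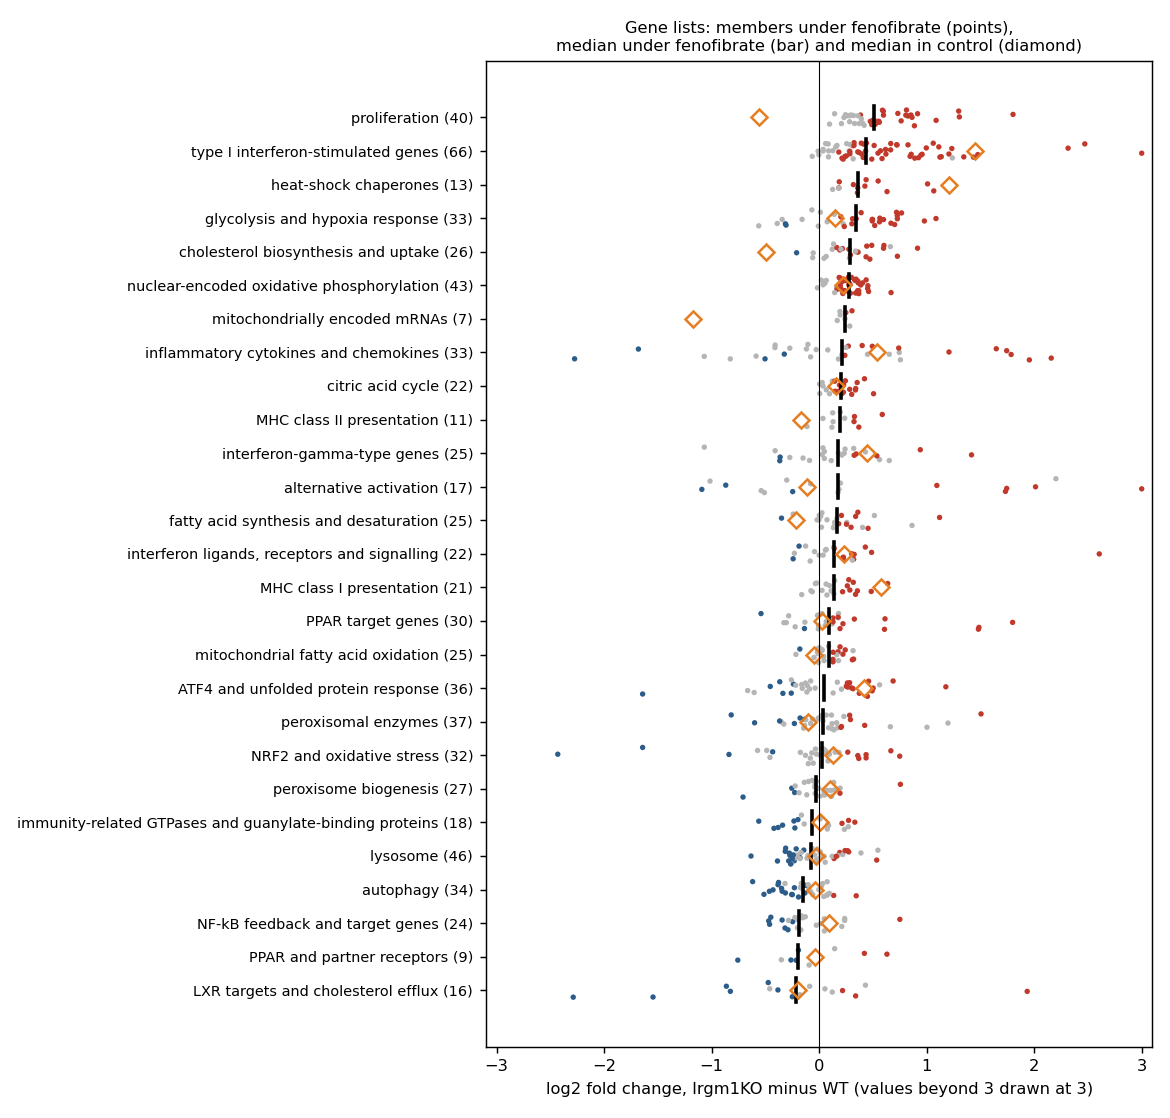
Log2 fold change of Irgm1KO against WT under fenofibrate (horizontal axis) for the tested members of 27 gene lists (rows, number tested in brackets; points red if called higher, blue if called lower, grey otherwise; vertical scatter has no meaning), with the list median under fenofibrate (black bar) and in control (orange diamond). The median bar for type I interferon-stimulated genes stands at 0.44 and its diamond at 1.45, and for cholesterol genes the bar is at 0.29 and the diamond at -0.50.

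Targets of PPAR, the receptor family the drug acts on, included some of the strongest lipid-handling differences. Of 39 listed target genes 30 were tested, and 11 rose and 2 fell in Irgm1KO, with a median of 0.09. The count of risen members was 6 without WT replicate 2, with only the 8 fenofibrate libraries fitted, or without the low-count filter, and 4 in the female libraries. Fgf21, Cyp4a10 and Cyp4a14, textbook PPAR alpha targets of liver, were at 0 in all 8 libraries, and Ppara itself was not among the tested genes. With the drug, 11 of the 30 rose and 7 fell in WT (18.1% of all genes rose and 16.9% fell), and 12 rose and 9 fell in Irgm1KO (23.5% and 22.2%). In control cells 11 of the 30 were higher and 10 lower in Irgm1KO (27.3% and 26.1% of all genes), with a median of 0.02.

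Lpl, the lipase that frees fatty acids from lipoproteins, measured 844, 605, 860 and 611 CPM in WT and 2904, 2660, 2011 and 2586 CPM in Irgm1KO. Every mutant library was above the highest WT library, a 3.48-fold rise (log2 1.80, SE 0.139, adjusted p = 3.75e-07). Cd36, a fatty acid and oxidised lipoprotein receptor, was 356, 210, 387 and 372 CPM in WT and 1036, 929, 958 and 791 CPM in Irgm1KO. The groups again stood apart (log2 1.49, SE 0.261, adjusted p = 0.000685). Angptl4, an inhibitor of Lpl, rose by 1.48 on the log2 scale at a low level, and the mitochondrial carrier Ucp2 from 510 ± 91.0 to 778 ± 76.0 CPM. By the interaction test the genotype difference was larger under the drug than in control for Lpl (by 0.77) and Ucp2 (0.84). For Cd36 it was not (0.41, adjusted p = 0.441, or 0.0406 with the pairing below). Angptl4 was also higher in Irgm1KO control cells (1.16, adjusted p of the difference 0.456). With the drug Angptl4 was lower in WT (-0.90) and in Irgm1KO (-0.59). Cpt1a, the gate of mitochondrial fatty acid import, had a log2 value of 0.00 (adjusted p = 0.974), and the lipid droplet coat Plin2 one of 0.18 (adjusted p = 0.114). Of 9 PPAR and partner receptors, 2 rose (22.2%) and 4 fell (44.4%), against 18.1% and 15.2% of all genes. Pparg rose from 20.2 ± 3.14 to 31.2 ± 3.37 CPM, and Rxra, the shared partner receptor, fell from 72.9 ± 17.2 to 43.2 ± 7.78 CPM with overlapping groups. Rxra was not called in the female libraries alone (adjusted p = 0.127).

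Peroxisomal genes, which the study's title names, showed no common direction. Of 27 biogenesis genes 2 rose (7.41%) and 3 fell (11.1%), with a median of -0.03. Of 37 peroxisomal enzymes 6 rose (16.2%) and 6 fell (16.2%), with a median of 0.04. The enzyme shares were near, and the biogenesis shares below, the 18.1% higher and 15.2% lower over all tested genes. Cat, the catalase that removes hydrogen peroxide, was 249, 255, 228 and 380 CPM in WT and 177, 162, 200 and 194 CPM in Irgm1KO. No libraries overlapped, and the log2 value was -0.60 (SE 0.126, adjusted p = 0.00206). The import receptor Pex5 (38.0 ± 0.723 to 31.9 ± 1.28 CPM), the NADPH-producing Idh1 (-0.37) and Nudt12 (-0.82) fell, and the membrane protein Pxmp2 (0.76) and Sod1 (0.42) rose. Pex11a, a peroxisome division factor, was not called (-0.22, adjusted p = 0.08). Hsd17b4 (-0.18, adjusted p = 0.0379) lost its call without any one of 5 libraries, Irgm1KO replicates 2, 3 and 4 and WT replicates 1 and 2, with adjusted p from 0.0554 to 0.128. Abcd2, a very-long-chain fatty acid transporter, was lower (-0.71, adjusted p = 0.0182) but not without Irgm1KO replicate 2 (adjusted p = 0.053) or WT replicate 2 (adjusted p = 0.0679).

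Many cholesterol synthesis genes rose, fewer fatty acid synthesis genes did, and several efflux genes fell. Of 26 genes of cholesterol biosynthesis and uptake, 15 rose and 1 fell (median 0.29), and 8 rose in the female libraries alone. Fdps, farnesyl diphosphate synthase, was 19.7, 19.3, 17.9 and 17.6 CPM in WT and 27.3, 31.2, 26.8 and 27.7 CPM in Irgm1KO. The groups did not overlap (log2 0.60, SE 0.0800, adjusted p = 5.06e-05). The squalene epoxidase Sqle (0.60) and the squalene synthase Fdft1 (0.44) rose as well. Fatty acid synthesis and desaturation had 8 of 25 higher, 1 lower and 16 not called (median 0.17), and 5 higher with only the 8 fenofibrate libraries fitted. Fasn, fatty acid synthase, rose from 43.3 ± 4.13 to 59.4 ± 7.38 CPM. In the list of LXR targets and cholesterol efflux 3 of 16 rose (18.8%, near the share over all genes) and 7 fell (43.8%), with a median of -0.21. Besides Abca1, the ubiquitin ligase Mylip fell from 26.9 ± 2.72 to 15.1 ± 2.09 CPM. Ch25h, which makes 25-hydroxycholesterol and is also interferon-induced, rose from 5.22 ± 1.60 to 19.9 ± 4.54 CPM.

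Nuclear genes of mitochondrial energy metabolism were shifted up by small amounts. Among 43 such genes of oxidative phosphorylation, 35 rose and 0 fell (median 0.28), and of 22 citric acid cycle genes 15 rose and 0 fell (median 0.20). In the female libraries these counts were 23 and 10. Cycs, cytochrome c, measured 64.4, 60.2, 62.9 and 63.0 CPM in WT and 101, 107, 91.5 and 99.1 CPM in Irgm1KO. The groups did not overlap (log2 0.67, SE 0.0589, adjusted p = 1.53e-06). The ATP synthase subunit Atp5b rose by 0.45, the complex I subunit Ndufs8 by 0.46, isocitrate dehydrogenase subunit Idh3a by 0.51 and malate dehydrogenase Mdh2 by 0.42. Mitochondrial fatty acid oxidation had 9 of 25 higher and 1 lower (median 0.09), with 2 higher in the female libraries and 5 with only the 8 fenofibrate libraries fitted or without the low-count filter. Acat1, acetyl-CoA acetyltransferase, rose by 0.32.

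Few of the mitochondrial genome's own transcripts passed the test. Of 13 listed mRNAs 7 were tested, 2 rose and 0 fell (median 0.24). The other 6 had 0 to 5 counts in any library, so summed levels and shares of counts here stand for part of the mitochondrial mRNAs only, and the cause of these low counts was not tested. The summed level was 10390 to 13300 CPM in WT and 13730 to 14930 CPM in Irgm1KO. mt-Nd4 was 631, 565, 541 and 475 CPM in WT and 639, 763, 685 and 646 CPM in Irgm1KO (adjusted p = 0.0286), and mt-Co1 overlapped between groups (adjusted p = 0.0316). Both calls were lost when single libraries were left out, mt-Nd4 without Irgm1KO replicates 2 or 3 or WT replicates 3 or 4 (adjusted p 0.051 to 0.0876) and mt-Co1 without Irgm1KO replicates 1, 3 or 4 or WT replicates 2 or 4 (0.0644 to 0.0905).

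Many glycolysis and proliferation genes also rose. Of 33 genes of glycolysis and the hypoxia response, 21 rose and 2 fell (median 0.34). Pkm, pyruvate kinase, was 1326, 1212, 1252 and 1502 CPM in WT and 2097, 2520, 2220 and 2165 CPM in Irgm1KO. All Irgm1KO libraries were above all WT libraries (log2 0.77, SE 0.0705, adjusted p = 2.39e-06). Pgk1 (0.73) and the lactate dehydrogenase Ldha (0.72) rose alongside. Of 40 proliferation genes 24 rose (60%, against 18.1% of all genes) and 0 fell (median 0.51). In 21 members (52.5%) every Irgm1KO library was above every WT library, against 15.2% of all genes. Ccnd1, cyclin D1, was 78.9, 70.3, 66.7 and 75.2 CPM in WT and 256, 245, 247 and 269 CPM in Irgm1KO. The groups were far apart, a 3.49-fold rise with the smallest adjusted p of the genes named here (log2 1.80, SE 0.0563, adjusted p = 5.96e-12). Ccne1, cyclin E1 (1.30), Pcna, the replication clamp (0.92), and Mcm6, a replicative helicase subunit (0.81), rose too.

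Stress and degradation genes differed by branch. Of 13 heat-shock chaperones 11 rose and 0 fell (median 0.36), among them Hsp90aa1 (154 ± 8.38 to 239 ± 10.3 CPM) and Dnaja1 (51.2 ± 3.48 to 74.9 ± 3.38 CPM). In the list of the ATF4 and unfolded protein response 13 of 36 rose (36.1%) and 6 fell (16.7%, near the share over all genes), with a median of 0.05. Psat1, a serine synthesis enzyme, rose by 1.18 on the log2 scale. The endoplasmic reticulum chaperone Calr rose by 0.50 and Sdf2l1, also of the endoplasmic reticulum, by 0.46 on the log2 scale. Among 32 NRF2 and oxidative stress genes 7 rose (21.9%) and 4 fell (12.5%), near the 18.1% and 15.2% over all genes (median 0.02). Thioredoxin Txn1 was higher (0.75) and Nfe2l2, the gene of NRF2, lower (-0.43).

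Autophagy genes, in which Irgm1 has been implicated, included many that fell. Of 34 members 2 rose and 17 fell (median -0.15), against 15.2% of all genes lower. Ulk1, the kinase that starts autophagosome formation, was 42.7, 38.7, 43.6 and 40.9 CPM in WT and 29.4, 31.0, 31.4 and 28.6 CPM in Irgm1KO. The groups did not overlap (log2 -0.46, SE 0.0461, adjusted p = 4.4e-06). Optn, an autophagy receptor, fell by 0.62 on the log2 scale. Of 46 lysosome genes 7 rose (15.2%) and 14 fell (30.4%), with a median of -0.08, against 18.1% higher and 15.2% lower over all genes. The count of fallen members was 9 without Irgm1KO replicate 1, without WT replicate 3 or with only the 8 fenofibrate libraries fitted, and 6 in the female libraries. The hydrolases Glb1 (-0.39) and Galc (-0.63) fell, and Tfeb, the factor that drives lysosomal genes, rose by 0.54. Tfeb was not called in the female libraries alone (adjusted p = 0.0573).

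Macrophage identity genes and markers of other cells were followed beside these groups. Of 10 macrophage markers 2 rose (20%, near the share over all genes) and 3 fell (30%). Their summed levels were 14410 to 23090 CPM in WT and 15430 to 18820 CPM in Irgm1KO. In control cells 1 of the 10 was higher and 7 were lower in Irgm1KO. Mertk, a receptor for apoptotic cells, fell from 212 ± 37.2 to 117 ± 20.1 CPM, whereas Itgam rose by 0.29. Of 17 alternative activation genes 5 rose (29.4%) and 3 fell (17.6%, near the share over all genes), with a median of 0.18. The scavenger receptor Stab1 fell by 1.09, and Arg1, arginase 1, rose from 0.0395 to 0.542 CPM, a level near the detection limit in both groups.

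Of 9 dendritic cell markers 7 were tested and 4 rose, with summed levels of 56.4 to 61.9 CPM in WT and 117 to 141 CPM in Irgm1KO, and Flt3 was at 0. Clec9a, a receptor for dead cells, was 18.6, 20.0, 24.2 and 8.23 CPM in WT and 69.9, 55.5, 54.4 and 65.4 CPM in Irgm1KO, and Xcr1 and Itgax rose too. Osteoclast markers summed to 95.0 to 107 CPM in WT and 137 to 179 CPM in Irgm1KO, but without Ocstamp to 91.5 to 103 CPM and 91.7 to 97.0 CPM, with overlapping groups. The sum of the NK cell markers, 2.58 to 7.54 CPM in WT and 12.7 to 24.5 CPM in Irgm1KO, came almost wholly from Klrk1, the 1 member tested. Eosinophil markers summed to 0.137 to 0.340 CPM in WT and 0.874 to 1.97 CPM in Irgm1KO. Fibroblast markers summed to 0.517 to 1.71 CPM in WT and 0.112 to 0.240 CPM in Irgm1KO. Endothelial markers ran from 164 to 292 CPM in WT and from 93.9 to 155 CPM in Irgm1KO, mostly from Vwf, and Emcn was at 0. The part of these markers in the other differences was not tested, and in bulk samples fewer cells of a type and less RNA per cell cannot be told apart.

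**Figure D4:**
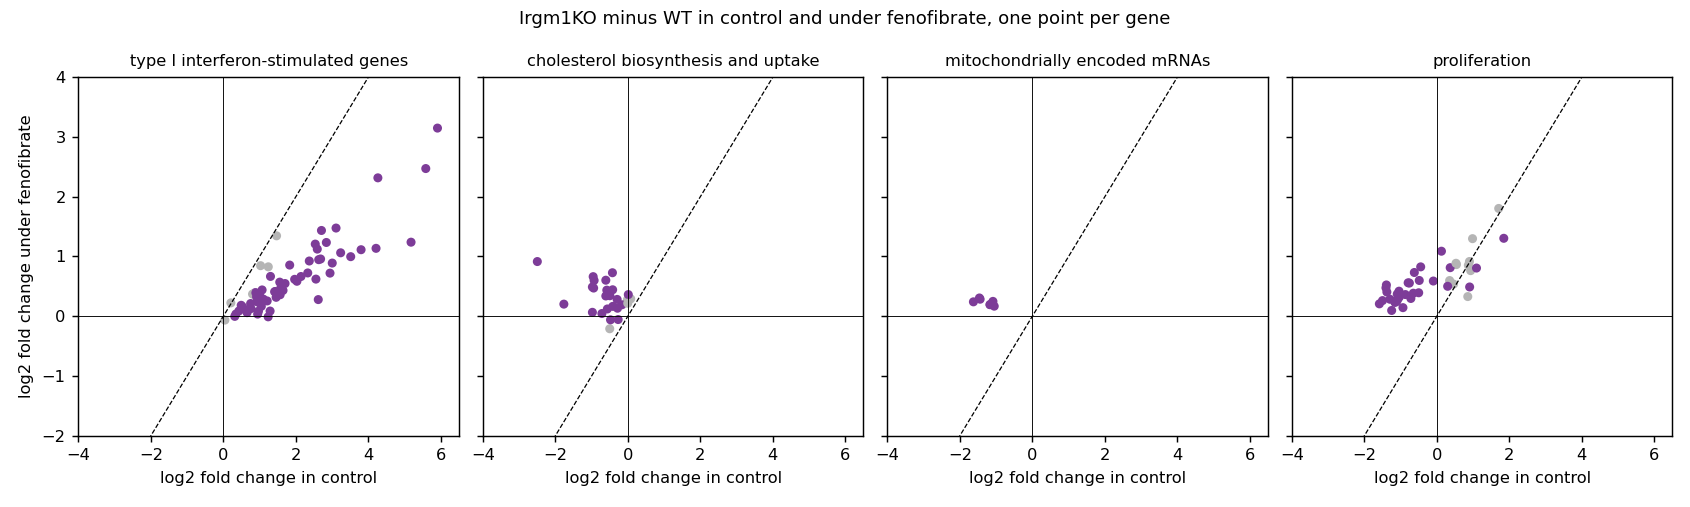
Log2 fold change of Irgm1KO against WT in control (horizontal axis) and under fenofibrate (vertical axis) for the members of 4 gene lists, purple where the 2 differ at an adjusted p below 0.05, with the dashed line marking equal values. Interferon-stimulated genes lie to the right of 0 and below the line, and all 7 mitochondrially encoded mRNAs lie left of 0 and above the line.

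The genotype difference under the drug was set beside that in control cells. In control 4219 genes were higher (27.3%) and 4026 lower (26.1%), and 2304 genes (14.9%) had a larger and 2261 (14.7%) a smaller Irgm1KO minus WT difference under fenofibrate by the interaction test. Of the 2792 genes higher under the drug, 1752 (62.8%, and 41.5% of the control list) were also higher in control and 245 (8.78%) were lower there. Of the 2348 lower genes, 1475 (62.8%, and 36.6% of the control list) were lower in control and 147 (6.26%) higher. Same-numbered control and fenofibrate libraries of a genotype deviated together, so these lists are not independent. A fit that used this pairing called 2972 larger and 2943 smaller differences, and 4519 of the 4565 genes called without it were called again with the same sign.

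For the interferon-stimulated genes, 65 of 66 were higher in control with a median of 1.45, and 60 had a smaller difference under the drug. Oasl1 averaged 32.7 CPM in WT and 628 CPM in Irgm1KO control cells, against 24.3 and 121 CPM under the drug. Cholesterol genes had the other direction in control, with 0 of 26 higher and 21 lower in control (median -0.50) and 22 with a larger value under the drug. All 7 tested mitochondrially encoded mRNAs were lower in Irgm1KO control cells (median -1.17), and all 7 had a larger value under the drug. Their share of all counts was 1.73% ± 0.143 (WT control), 0.777% ± 0.0988 (Irgm1KO control), 1.25% ± 0.119 (WT fenofibrate) and 1.44% ± 0.0586 (Irgm1KO fenofibrate; SD, n = 4). Proliferation genes had 15 of 40 higher and 23 lower in control (median -0.56), and 27 had a larger value under the drug. Ccnd1 was among the 15, with log2 1.71 in control and 1.80 under the drug (adjusted p of the difference 0.386). So were Pcna (0.90 in control, adjusted p of the difference 0.896), Ccne1 (1.85) and Mcm6 (1.09), and the values of Ccne1 and Mcm6 were smaller under the drug (adjusted p of the difference 0.00534 and 0.0232). Nuclear-encoded oxidative phosphorylation had 26 of 43 higher and 2 lower in control (median 0.22). Under the drug 10 had a larger and 4 a smaller value, and 29 were not called for the difference. All 13 heat-shock chaperones were higher in control (median 1.21), and 12 had a smaller value under the drug.

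For some genes a wide gap in control was not called under the drug. Igfbp4, an insulin-like growth factor binding protein, averaged 54.1 CPM in WT and 6.74 CPM in Irgm1KO control cells. Under the drug it was 47.1, 38.8, 48.8 and 35.8 CPM in WT and 39.3, 37.3, 36.9 and 36.4 CPM in Irgm1KO, with overlapping groups (log2 -0.19, SE 0.105, adjusted p = 0.19). The immunoglobulin receptor gene Fcgr3 averaged 1259 and 440 CPM in control and 818 ± 71.3 and 814 ± 40.8 CPM under the drug (adjusted p = 0.948). Ms4a14 reversed, at 21.1 and 65.9 CPM in control and 17.5 ± 2.20 and 12.6 ± 0.399 CPM under the drug (log2 -0.48, adjusted p = 0.000493).

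The first experiment, from other libraries without the drug, gave a separate measure of the genotype difference, in which 19.8% of 13998 tested genes were higher and 20.7% lower. Its 8 WT and Irgm1-KO libraries were all female by Xist and Y-linked counts. Of 2665 genes higher under fenofibrate and tested there, 823 were also higher (30.9%, and 30.2% of that list) and 410 lower (15.4%). Of 2236 lower genes, 726 were also lower (32.5%, and 25.5% of that list) and 247 higher (11%). Type I interferon-stimulated genes had 64 of 66 higher there and 0 lower. Other lists differed from the result under fenofibrate. Nuclear-encoded oxidative phosphorylation had 2 of 43 higher and 0 lower, proliferation 5 of 40 higher and 29 lower, and cholesterol genes 0 of 26 higher and 19 lower. The sign was shared by 61.9% of the 4901 genes called under fenofibrate, against 57.2% of all 13676 genes tested in both. Of the 10 largest rises, Ocstamp, Serpinb1c, Ccnd2, Oasl1 and Ccl7 were also higher in the first experiment. Egr1 (0.002), Etv5 (0.03) and Serpinb6b (0.19) were not called there, and Fos (-0.36) and Myc (-0.74) were lower. Of the 10 largest falls, Ank2, Sdc2, Fam13a, Lipo3, Etl4 and Gab1 were also lower. Cmklr1, F5 and Abca1 were not called, and Slc7a11 was higher (2.25).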

How the data were processed

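Messenger RNA libraries were grouped by their titles. The authors deposited raw, whole-number counts of reads for each Ensembl gene. The submitters' processing notes list fastp, STAR, DESeq2 and build GRCm39, without versions. How reads were counted, on which annotation and whether by strand, is not given in the sources used here. Near-identical, overlapping and antisense genes are therefore uncertain. Symbols came from tables that pair them with Ensembl IDs, and promoters from RefSeq (GRCm38.p6).

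The analysis used edgeR 4.0.16 in R 4.3.3. The filter was filterByExpr with a minimum count of 10 and a minimum total of 15, libraries were scaled by TMM, and all 16 libraries of the second experiment entered 1 robust quasi-likelihood fit (biological coefficient of variation 0.12), and p-values were adjusted by Benjamini-Hochberg across the whole table, with 0.05 as the limit. The standard error is the log2 fold change divided by the square root of F. Alternatives used DESeq2 1.42.0, limma 3.58.1 and the settings named in the closing section. The female-only setting was chosen after seeing the data. On simulated counts for this comparison (15429 genes, 200 changed), 94.4% of 2-fold changes were recovered among genes of at least 1 CPM and 70% among all, and 6 unchanged genes were called.

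Named genes were Irgm1, 21 others fixed by name, the 10 largest rises and falls without overlap between groups (5 CPM or more in the higher one), up to 4 members of smallest p per list, the 5 interaction genes of smallest p in each direction, and the genes of the printed promoters; some members named with values as cell type or family context fall outside this rule and were chosen after their values were seen. Some genes that the rule covers are withheld and not reported here. Members and lists were chosen with earlier results of these data known.

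Deviations from the group mean correlated between same-numbered WT and Irgm1KO fenofibrate libraries with r of 0.0615, -0.425, -0.316 and -0.155, so the numbers do not pair the genotypes. Between control and fenofibrate libraries of a genotype r was 0.527, 0.776, 0.744 and 0.638 in WT and 0.407, 0.434, 0.639 and 0.387 in Irgm1KO. All libraries differed by more than counting noise.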

Additional observations from a re-analysis of the deposited data

Results flagged for a closer look

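The Irgm1KO minus WT difference under fenofibrate departed from that in control for 76 of the named genes, by the interaction test at an adjusted p below 0.05. The 75 listed here leave out Il6 (adjusted p = 0.0003), for which no fold is given at its low counts. Values are log2 differences, fenofibrate minus control, and a negative value means that the difference was smaller or more negative under the drug. The value of Ifnb1 is also uncertain (adjusted p = 0.0297), since its WT groups held 9 counts under the drug and 14 in control. Interferon-stimulated and interferon-pathway genes were Ifnb1 (-2.79), Apol9a (-2.76), Oasl1 (-1.95), Isg15 (-1.63), Irf7 (-1.47), Usp18 (-1.33), Oas1g (-1.27), Oas1a (-0.97), Cd274 (-0.65), Gbp8 (-0.38), Irf5 (-0.29) and Tbk1 (-0.19), all negative, while Upp1 was positive (0.54). Chemokine and inflammatory genes with negative values were Ccl7 (-1.65), Nos2 (-1.55), Ccl5 (-1.50), Ccl2 (-1.01), Cxcl10 (-0.88), Sod2 (-0.76) and Cflar (-0.66), and those with positive values were Ccl6 (0.96) and Ptgs2 (0.85).

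Antigen presentation genes fell on both sides, with Psme2 (-0.39) and Psmb8 (-0.29) of class I and H2-DMa (0.55) and Cd74 (0.50) of class II. Lipid genes with positive values were Hpgd (3.48), Pxmp2 (1.75), Sqle (1.53), Fasn (1.38), Fdps (1.21), Abcd2 (0.92), Fdft1 (0.86), Ucp2 (0.84), Lpl (0.77), Hsd17b4 (0.75), Idh1 (0.63) and Acat1 (0.37), and Plin2 (-0.52) and Mylip (-0.82) were negative. Mitochondrial transcripts were mt-Nd4 (1.77), mt-Nd5 (1.73) and mt-Co1 (1.34), with Ndufs8 (0.24) and Cycs (-0.44) among nuclear genes.

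Growth and immediate-early genes with positive values were Egr1 (2.18), Ocstamp (1.27), Etv5 (1.26), Myc (1.04) and Fos (0.57), and the cell cycle genes Ccne1 (-0.54) and Mcm6 (-0.29) were negative. The chaperones Dnaja1 (-1.15) and Hsp90aa1 (-1.04) were negative, and Sdf2l1 (1.18), Herpud1 (1.04) and Calr (0.76) of the endoplasmic reticulum were positive. Autophagy, lysosome and cell type genes were Ulk1 (0.30), Optn (-0.69), Glb1 (0.42), Galc (0.72), Stab1 (0.71), Itgam (0.33), Clec9a (1.22) and Xcr1 (1.21). Further values were Nxpe5 (3.35), Igfbp4 (2.82), Fcgr3 (1.51), Gab1 (1.46), Nop10 (1.09), Etl4 (0.93), Ms4a14 (-2.12), Snhg12 (-1.76), Kcnab1 (-1.65) and Slc7a11 (-1.61).

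Some genes had a single library apart from the other 3 of its group, in cases by a small amount, which chance alone gives in about 1 in 20 groups. With 120 named genes in both fenofibrate groups, the 13 cases here are about as many as chance alone gives. In WT under fenofibrate these were Tnf (lowest, 17.1 CPM), Gab1 (lowest, 6.38 CPM), Oas1g (highest, 10.6 CPM), Cd74 (lowest, 1870 CPM), Acat1 (lowest, 31 CPM), Nfe2l2 (lowest, 271 CPM) and Ccne1 (highest, 12.7 CPM). In Irgm1KO under fenofibrate these were Ank2 (highest, 1.66 CPM), Gbp4 (highest, 645 CPM), Cd274 (lowest, 532 CPM), Irf5 (highest, 307 CPM), Sdf2l1 (highest, 182 CPM) and Nfe2l2 (lowest, 198 CPM).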

How the results depend on the processing

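No named gene called in the main fit changed direction under any alternative that was run. For named genes not called there, a change of sign was followed only where an alternative called the gene. None of them was called in the opposite direction. Calls of named genes were lost for 11 in female libraries only, 3 with only the 8 fenofibrate libraries and 16 under the block across genotypes. The 11 were Tnf (adjusted p = 0.0522), Gbp4 (0.0546), Tfeb (0.0573), H2-DMa (0.0694), Rxra (0.127), Il6, Hsd17b4, Abcd2, Cd74, mt-Nd4 and mt-Co1. The counts of 2792 higher and 2348 lower genes became 1658 and 1297 in female libraries only, where the interaction counts of 2304 and 2261 became 1120 and 998 on fewer samples. With only the 8 fenofibrate libraries fitted, 1782 genes were higher, 1652 lower, and 248 and 224 past 2-fold. A fit with a replicate block across genotypes, whose numbers do not pair, gave 897 higher, 738 lower, 181 more than 2-fold higher and 150 more than 2-fold lower. For the interaction the block was set within a genotype, where the numbers do pair: it gave 2972 and 2943, and voom with duplicateCorrelation 2995 and 2984. All 76 named genes called for the interaction kept that call and sign under the block, and 17 more were called. Of 17 list counts followed, 7 moved by over 1.5 times in female libraries, 5 with the 8 libraries alone, 2 without the filter and 12 under the block across genotypes. Under that block 1 more, MHC class I, went to 0 higher. Interferon-stimulated genes went to 28 higher, oxidative phosphorylation to 15, cholesterol genes to 9, interferon signalling to 3 and fatty acid synthesis to 4. The stricter filter (at least 1 CPM) left 180 and 118 genes past 2-fold, since fewer low genes were tested. Leaving out each replicate gave 2339 to 2708 higher, 1962 to 2365 lower, 291 to 372 and 246 to 279 past 2-fold, 2042 to 2635 and 1953 to 2816 for the interaction, and -0.60 to -0.54 for Irgm1. DESeq2 called 2932 higher and 2653 lower. The shared sign with the first experiment was 70.22% among the 2206 genes called in both. Genes under 1 CPM are limited by depth, as the simulated recovery shows.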
